A study of Mus musculus with 20 samples.

Results

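The genes described here encode the nuclear subunits of respiratory complexes II, III, IV and V, with cytochrome c. They were taken from all array probes whose gene name begins with Uqcr, Cox4 to Cox8 or Atp5, or is Sdha, Sdhb, Sdhc, Sdhd, Cyc1 or Cycs. The rule found 81 probes among the 39429 on the array, and 77 of them, for 48 genes, were well above background in the sample's dye on at least 10 of the 20 arrays. Of these 48 genes, 44 encode subunits. The other 4 matched the rule by their prefix and were not counted as subunits. Among them, Cox7a2l encodes a factor of supercomplex assembly, Cox4nb is now named Emc8, and Atp5s and Atp5sl are now named Dmac2l and Dmac2. The probes that were too dim belonged to Cox8c and Cox7b2, well above background on 0 arrays, and to further probes of Atp5j (5 arrays) and Cycs (1 array).

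RNA came from the quadriceps of male C57BL/6J mice aged 6 weeks. The mHFD group comprised 10 mice born to dams given a diet with 40% of energy from fat, and the mLFD group 10 mice born to dams given 10%. Dams received their diet from 3 days before mating until the end of lactation, and all offspring, in both groups, ate the low-fat diet after weaning, were housed singly and were fasted for 2 h before tissue was taken. Litters held 5 to 7 pups, a group could hold up to 4 siblings, and litters were not labelled, so mice may not be independent and p-values may be too small. The mouse's own RNA carried Cy5, and an equal mix of all samples, the pool, carried Cy3 on every array. A value is the log2 ratio of the sample to that pool, and a difference is the mHFD mean minus the mLFD mean of those ratios.

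The respiratory chain passes electrons from NADH and succinate to oxygen and pumps protons out of the mitochondrial matrix. Complex II oxidises succinate, complex III hands electrons to cytochrome c, complex IV reduces oxygen, and complex V lets protons back in to make ATP. Skeletal muscle is rich in all of them. Several small subunits of complex IV exist as a general isoform and as an isoform labelled by tissue as muscle, lung or testis, encoded by separate genes. Such a label does not mean that the form is absent from other cells, adipocytes among them.

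All 12 skeletal muscle markers listed passed the filter. Of 5 cardiac markers Myh6 and Tnnt2 passed it too, whereas Nppa, Nppb and Tnni3 were not above background. The Cy5 signal was well above background for 15506 to 23410 probes, depending on the array. The 5 slides carried 4 arrays each and were balanced over the groups, whereas position on the slide was not, with mHFD at positions 1 and 3. Of the values of the 48 member genes 43 were missing because the spot was flagged as non-uniform, and 42 of those lay on slide 2. No member spot was saturated in Cy5, and saturation in Cy3 was not counted.

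The maternal diet groups did not differ in any subunit gene beyond the spread between mice. With limma's moderated test and Benjamini-Hochberg adjustment over all 19206 probes tested, 0 of 77 member probes passed adjusted p 0.05, where the share over all probes was 0.00521%. The smallest adjusted p among members was 0.689. At an unadjusted p of 0.05 or less 3 of 77 probes were reached, or 3.90%, against 7.14% of all probes. Among the genes, each represented by its brightest probe, 2 of 48 reached it, against 7.23% of all 15303 genes.

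Differences were small in each complex. The median difference over the 44 subunit genes was -0.017, with 18 higher and 26 lower in mHFD, and over all genes tested it was 0.00083, with 49.6% lower. For complex II the median was -0.032, with 2 genes higher and 2 lower. Complex III had a median of -0.0072, with 3 higher and 6 lower, and complex IV one of 0.0044, with 8 higher and 7 lower. Complex V had a median of -0.053, with 4 higher and 11 lower. With the Agilent log ratio it was -0.0042, and with median centring -0.11. Single arrays moved these medians by more than 1.5 times: complex III was at -0.045 without mHFD replicate 5, and complex IV at 0.040 without mLFD replicate 1. None of these counts is a test, since subunit genes of one mouse are not replicates.

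The intervals bound, for a gene's brightest probe, the size of a difference that these arrays could have missed. They are unadjusted and make no allowance for siblings or for dim probes. For 42 of the 48 genes the 95% interval of the difference lay within 1.3-fold in both directions, and this held for 93.6% of all genes. For all 48 it lay within 1.5-fold. Over all 77 member probes, 65 lay within 1.3-fold and 76 within 1.5-fold.

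**Figure D1:**
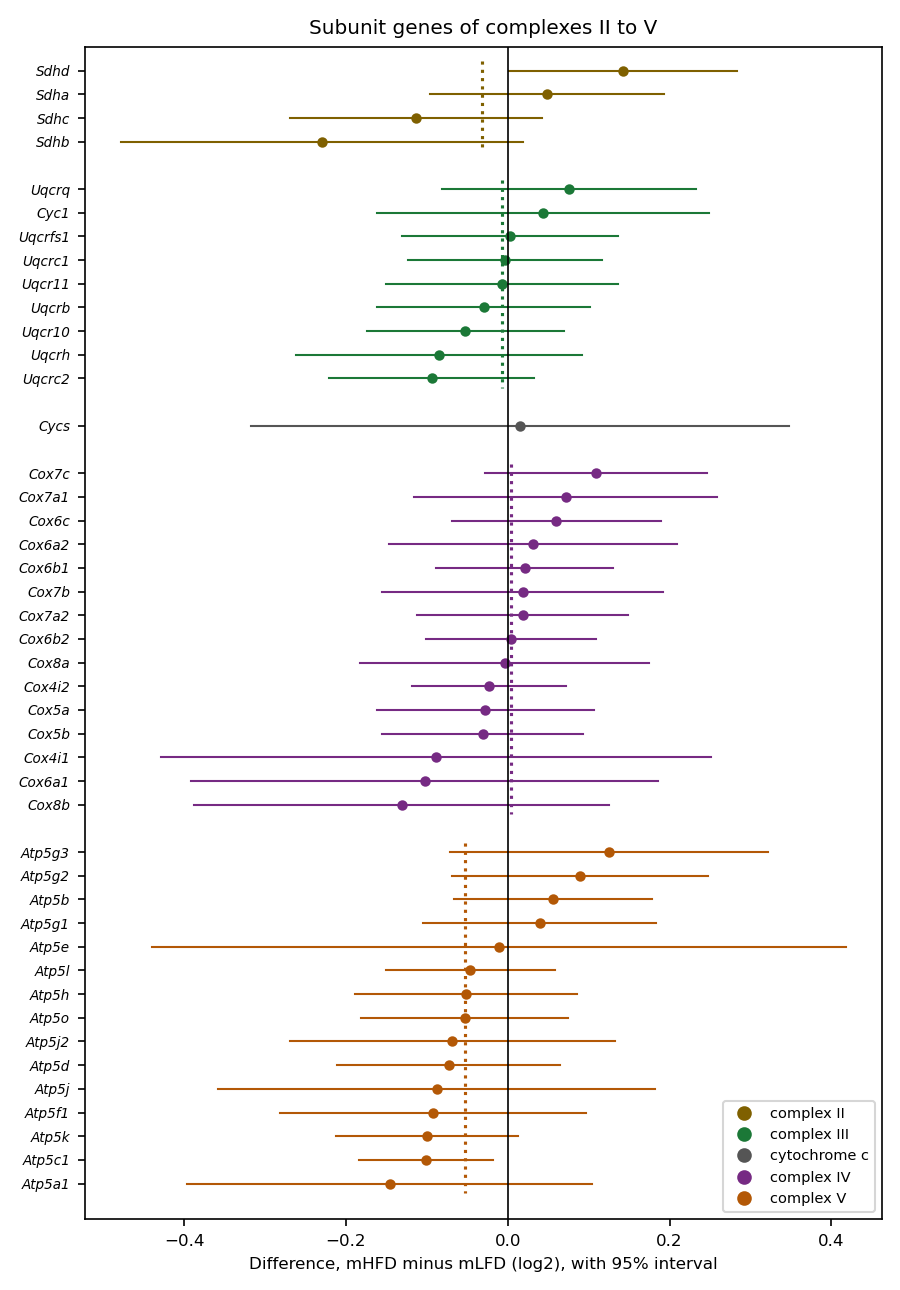
Difference between the groups (mHFD minus mLFD, log2, x axis) for each of the 44 subunit genes, with its 95% interval as a line and the median of the complex as a dotted line. Only the intervals of Sdhd and Atp5c1 leave out 0, both before adjustment, and 11 of the 15 genes of complex V lie to the left of 0.

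The level over all subunits overlapped between the groups array by array. The median log2 ratio of the 44 subunit genes on an array ranged from -0.065 to 0.21 in mHFD with a median of 0.011, and from -0.054 to 0.17 in mLFD with a median of 0.049. The highest array of each group was mHFD replicate 5, at 0.21, and mLFD replicate 1, at 0.17. By slide, the median difference over the subunit genes was -0.11, 0.014, 0.024, -0.024 and -0.040 for slides 1 to 5, so that its sign differed between slides.

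**Figure D2:**
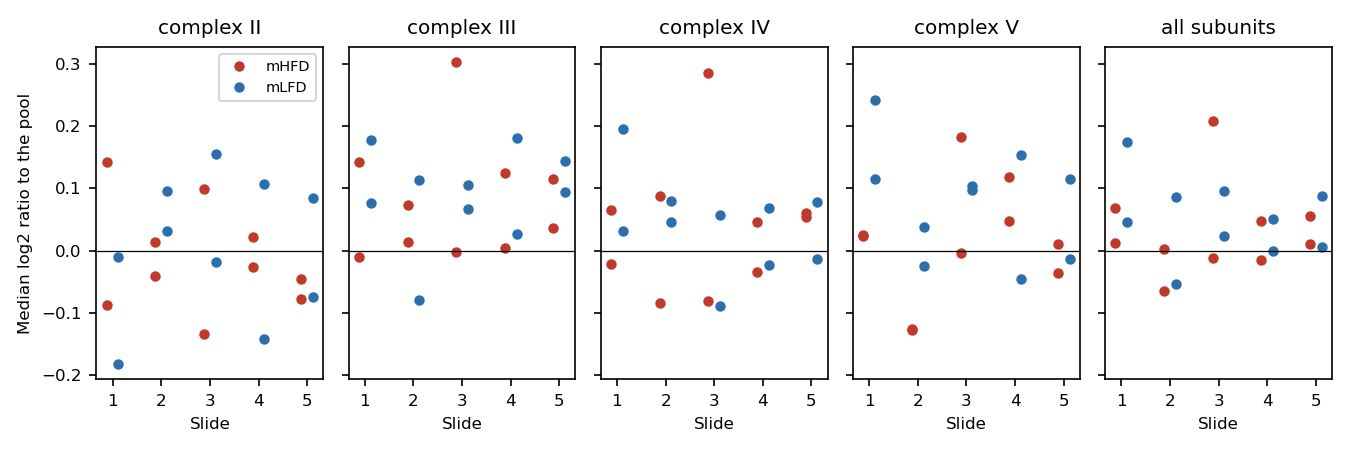
Median log2 ratio to the pool (y axis) of the genes of each complex on each of the 20 arrays, by slide (x axis), with mHFD in red and mLFD in blue. The groups overlap on the scale of every panel, and the array of mHFD replicate 5 on slide 3 is the highest for complexes III and IV.

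Complex II has 4 subunits, all encoded in the nucleus. Sdhd, which encodes a membrane anchor, ranged from -0.066 over a median of 0.14 to 0.39 in mHFD and from -0.28 over -0.0011 to 0.34 in mLFD. The groups overlapped, with a difference of 0.14 (SE 0.068, n = 10 and 10; limma p = 0.0480, adjusted p = 0.689). Sdhb, which encodes the iron-sulphur subunit, ranged from -0.33 over -0.070 to 0.18 in mHFD and from -0.41 over 0.16 to 0.81 in mLFD. Its difference was -0.23 (SE 0.12, n = 10 and 9; limma adjusted p = 0.697). The second Sdhb probe gave 0.058, and the 2 probes correlated at -0.48 over the arrays, so no direction can be read for Sdhb. The flavoprotein gene Sdha differed by 0.048 and the other anchor, Sdhc, by -0.11, neither of them passing the test.

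Complex III was measured through 9 genes, whose differences ran from -0.094 to 0.075. Uqcrc2, one of the core proteins, ranged from -0.35 over -0.054 to 0.20 in mHFD and from -0.13 over 0.072 to 0.18 in mLFD, a difference of -0.094 (SE 0.061; limma adjusted p = 0.729). Uqcrq, a small subunit, had a difference of 0.075 (SE 0.075, n = 9 and 9; limma adjusted p = 0.819). The gene of the Rieske iron-sulphur protein, Uqcrfs1, differed by 0.0030, the other core protein's gene, Uqcrc1, by -0.0036, and Cyc1, the gene of the haem-bearing cytochrome of the complex, by 0.044. The intervals of all 9 lay within 1.3-fold.

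The brightest probe of Cycs, the gene of cytochrome c, varied more between arrays than those of most subunits. Its ratio ran from -0.94 over -0.42 to 0.095 in mHFD and from -1.11 over -0.41 to 0.096 in mLFD. The ranges nearly coincided, and the difference was 0.015 (SE 0.16; limma adjusted p = 0.988). Slide accounted for 60.5% of its variance, against a median of 25.6% over all probes. The other probe of Cycs differed by -0.031 and correlated at -0.065 with the first. Its SD within groups was 0.14, against 0.40 for the brightest and a median of 0.16 over the subunit genes.

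Complex IV was measured through 15 nuclear genes. Cox7c, a small general subunit, ranged from -0.021 over 0.16 to 0.46 in mHFD and from -0.15 over 0.13 to 0.23 in mLFD, a difference of 0.11 (SE 0.066; limma adjusted p = 0.715). Cox6c, another small subunit, differed by 0.060, Cox5a by -0.028 and Cox5b by -0.031. Cox4i1, the general form of the largest nuclear subunit, had the widest interval of the complex. It ran from -1.06 over -0.17 to 0.41 in mHFD and from -0.46 over -0.13 to 0.15 in mLFD, and its difference was -0.088 (SE 0.16, n = 9 and 8; limma adjusted p = 0.910).

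In complex V, Atp5c1, which encodes the central gamma stalk, ran from -0.20 over -0.098 to 0.048 in mHFD and from -0.10 over -0.020 to 0.16 in mLFD. The difference was -0.10 (SE 0.040; limma p = 0.0195, adjusted p = 0.689). A second Atp5c1 probe gave 0.11 and correlated at -0.34 with the first, so the sign depends on the probe. Atp5a1, the gene of the catalytic ring's alpha subunit, differed by -0.15 (SE 0.12; limma adjusted p = 0.785), and Atp5b, that of the beta subunit, by 0.056 (SE 0.058).

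The genes of the membrane ring of c subunits had positive differences. They were 0.040 for Atp5g1, 0.089 for Atp5g2 and 0.13 for Atp5g3, and Atp5b was the only other gene of the complex above 0. For Atp5g3 the ratio ran from 0.099 over 0.35 to 0.69 in mHFD and from -0.084 over 0.28 to 0.76 in mLFD, with limma adjusted p = 0.762. None of these passed the test, and grouping the ring genes was chosen after their values were seen. These genes encode the same mature protein, and a second Atp5g1 probe gave -0.081.

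Probes of the same gene often disagreed. Of 20 member genes with several probes 10 had differences of both signs, and for 15 the median correlation between their probes was below 0.5. Atp5l, which encodes the g subunit, has 6 probes, and their differences ran from -0.32 to 0.070. The lowest, for a probe that is not the brightest, was among the 3 probes with unadjusted limma p at or below 0.05 (p = 0.0101, adjusted p = 0.689). Of the 6 Atp5l probes 4 hold almost the same stretch of sequence. These 30 bases are shown because they let the probes be compared base by base: capitals mark bases that differ from the brightest probe.
Atp5l, probe 1 (brightest): tgttcttggaccatgtgtaacgggactgct
Atp5l, probe 2: tgttAttggaccatgtgtaacAggactgct
Atp5l, probe 3: tgttcttggaccatgtgtaaAgAgactgct
Atp5l, probe 4: tgttTttggaccatgtgtaacgggacCgct
Counted from 1 at the first base shown, the substitutions are C5A and G22A in probe 2, C21A and G23A in probe 3, and C5T and T27C in probe 4. The scanner files place the brightest at chr9:44721352-44721411 on the minus strand of mm9, and the other 3 overlap it. Their differences were -0.046, -0.16, 0.011 and -0.093, and over the arrays the other probes correlated with the brightest at -0.16, 0.45 and 0.22.

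Atp5k, the gene of the e subunit, has 3 probes, which all lay lower in mHFD by value, between -0.30 and -0.033, and correlated at 0.30 to 0.56 with each other. The brightest Atp5k probe is placed on chromosome Y (chrY:1599617-1599676) and another on chromosome 5 (chr5:108862263-108862322), both on the minus strand of mm9. Their shared 30 bases are shown because they tell the 2 copies apart, with capitals at the differing bases.
Atp5k, brightest probe: ttgaggacgaataaagcttcattgtgtgga
Atp5k, chromosome 5 probe: ttgagAacgaataaagcttcattgtgtgAT
The substitutions are G6A, G29A and A30T. The brightest probe ran from 0.19 over 0.36 to 0.63 in mHFD and from 0.28 over 0.49 to 0.63 in mLFD, a difference of -0.10 (SE 0.054; limma adjusted p = 0.704). The chromosome 5 probe differed by -0.30 (SE 0.15; limma adjusted p = 0.689), and the 2 correlated at 0.34. How much of each probe's signal came from either copy was not tested.

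Tissue-specific and general isoforms of complex IV were then compared within each array. The specific form's log2 ratio to the pool was taken minus that of the general form, written below as specific over general. Such a value gives the balance relative to the pool, and not how much of each form was present. Of the 7 pairs listed, those of Cox7b2 and Cox8c could not be compared because these forms were not above background. The probes of the 3 muscle pairs are shown, by their first 30 bases, because they determine whether the isoforms are measured apart. They share at most 6 bases in a row within a pair.
Cox6a1, general: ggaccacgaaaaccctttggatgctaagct
Cox6a2, heart and skeletal muscle: agcaatcttcaaattggccttctgcacacc
Cox7a2, general: ctttggggatcaatatttattgatgtgtat
Cox7a1, heart and skeletal muscle: acaacgtcctgtacagactgaccatgacgc
Cox8a, general: tattggctctgcttggtggggtcccccttt
Cox8b, heart and skeletal muscle: ctataaaaagagctccgcagcatgaagttg
On mm9 the Cox6a1 probe lies at chr5:115795726-115795785 and the Cox6a2 probe at chr7:135349160-135349219, both on the minus strand.

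The balance of muscle over general isoform did not differ between the groups beyond the spread between mice. For Cox6a2 over Cox6a1 this balance relative to the pool ran from -0.27 over 0.21 to 0.63 in mHFD and from -0.33 over 0.25 to 0.47 in mLFD. The contrast was 0.12, with a 95% interval from -0.22 to 0.47 (n = 8 and 8; two-sided permutation p = 0.458). For Cox7a1 over Cox7a2 it was 0.045 (-0.15 to 0.24; permutation p = 0.637, n = 8 and 8). For Cox8b over Cox8a it was -0.13 (-0.43 to 0.17; permutation p = 0.364, n = 9 and 9).

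The isoforms of other tissues also did not differ beyond the spread between mice, but their probes were dim. The mean log2 brightness was 7.61 for Cox4i2 and 7.02 for Cox6b2, against 15.3 for Cox4i1 and 12.3 for Cox6b1. Whether dimness narrowed the ratios of Cox4i2 and Cox6b2 was not tested, and their contrasts carry that limit. Cox4i2 over Cox4i1, lung against general, had a contrast of 0.070 (-0.33 to 0.47; permutation p = 0.717, n = 9 and 8). Cox6b2 over Cox6b1, testis against general, had one of -0.016 (-0.16 to 0.13; permutation p = 0.813, n = 10 and 10). Adjusted over these 5 pairs, every p was 0.813.

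**Figure D3:**
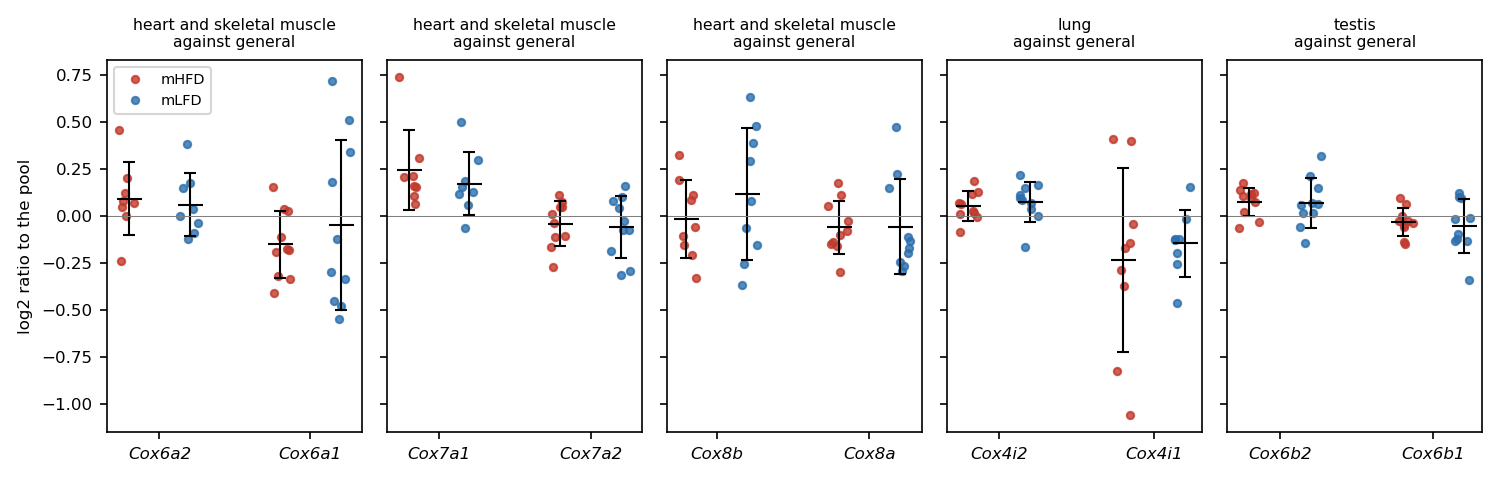
Log2 ratio to the pool (y axis) of each isoform on each array, mHFD in red and mLFD in blue, with mean and SD in black. The groups overlap for every isoform, and the array of mHFD replicate 5 is the highest point of Cox7a1.

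Taken singly, the muscle isoforms also overlapped between the groups. Cox6a2 ran from -0.24 over 0.073 to 0.46 in mHFD and from -0.12 over 0.017 to 0.38 in mLFD, a difference of 0.031. Cox7a1 differed by 0.072 and Cox8b by -0.13. Among the general forms Cox7a2 differed by 0.018 and Cox8a by -0.0038. Limma adjusted p was at least 0.812 for each of these 5 genes.

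Cox6a1, the general form of a regulatory subunit, had a wide range between mice. It ran from -0.41 over -0.18 to 0.15 in mHFD and from -0.55 over -0.21 to 0.71 in mLFD, and the groups overlapped (difference -0.10, SE 0.14; limma adjusted p = 0.867). Slide accounted for 5.47% of its variance. From the lowest to the highest array the range was 1.26 on the log2 scale, or 2.39-fold.

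Across the arrays Cox6a1 followed Ucp1, the uncoupling protein gene of brown adipocytes. Ucp1 was chosen for this comparison after values had been seen. It ran from -2.53 over -1.47 to 0.35 in mHFD and from -2.84 over -0.27 to 2.23 in mLFD, and was lower in mHFD by 0.74 without passing the test (SE 0.53; limma adjusted p = 0.750). In bulk tissue, fewer cells of a type and less RNA per cell cannot be told apart.

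Over 20 arrays Pearson's r between Cox6a1 and Ucp1 was 0.876 and Spearman's rho 0.856, each with a permutation p of 1e-05, the smallest that 100000 permutations can give. With a slope on Ucp1 fitted by limma to all 19205 other probes, 109 probes (0.568%) passed adjusted p 0.05, and of the 77 member probes Cox6a1 alone did, with a slope of 0.22 (SE 0.027, adjusted p = 6.03e-05). Only 0.0729% of probes, counting those of Cox6a1 and Ucp1 themselves, had an r with Ucp1 as high. Without the 2 arrays farthest from the median of Ucp1, mLFD replicate 1 and mLFD replicate 8, r was 0.807. It was 0.831 within mHFD, 0.908 within mLFD and 0.915 within slides. With the Cy5 signal alone, which does not use the pool, r was 0.805.

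Cox8a followed Ucp1 less closely. It ran from -0.30 over -0.090 to 0.17 in mHFD and from -0.29 over -0.15 to 0.47 in mLFD. Its r was 0.702 (permutation p = 0.00059) and its rho 0.505 (permutation p = 0.0256), neither p adjusted for its choice as the second highest of 48 member genes, and r was 0.558 without the same 2 arrays. The slope was 0.10 (SE 0.024) with a limma adjusted p of 0.0517 over all probes, which misses the threshold. Counting those of Cox8a and Ucp1 themselves, 0.583% of probes had an r as high. The second Cox8a probe had an r of 0.573 and a rho of 0.295.

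**Figure D4:**
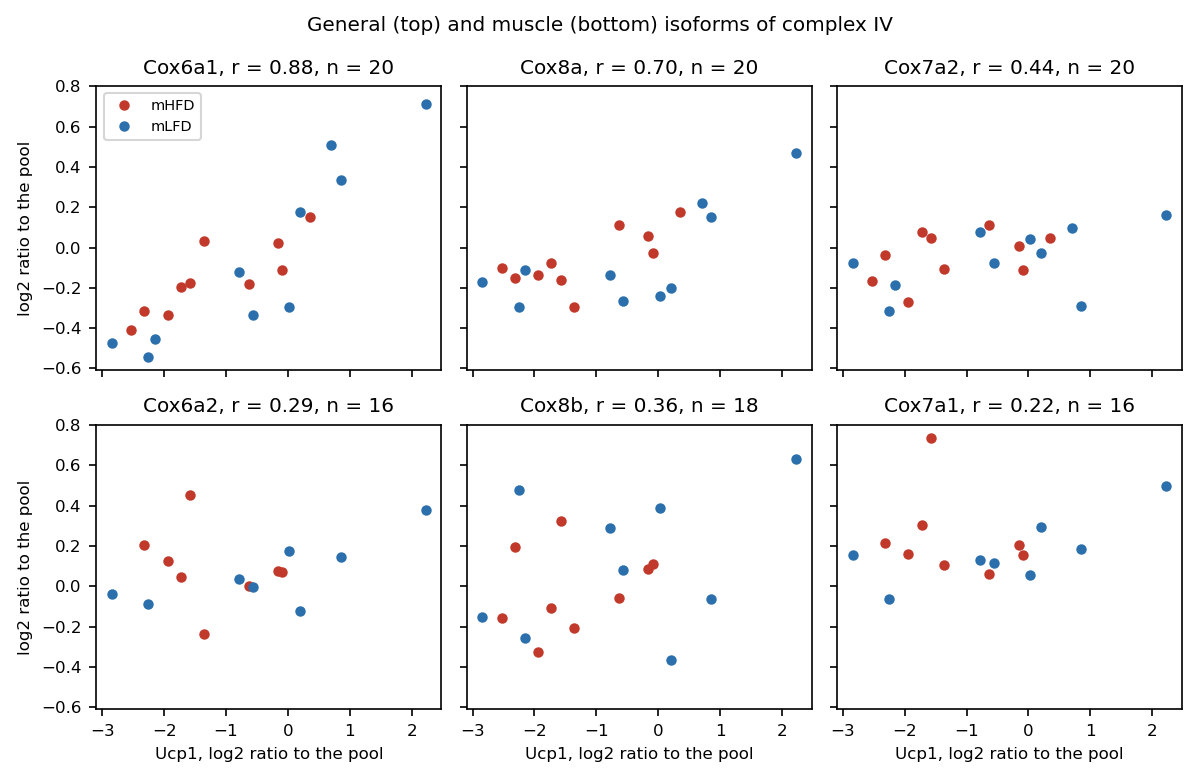
Log2 ratio to the pool of 3 general isoforms (top) and their muscle isoforms (bottom) against that of Ucp1 on the same arrays, mHFD in red and mLFD in blue. Cox6a1 rises along the whole range of Ucp1 in both groups, with r = 0.88, and Cox6a2 has r = 0.29.

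The muscle isoform of the same subunit did not follow Ucp1 in the same way. Over the 16 arrays with a value, Cox6a2 had an r of 0.291, with -0.263 within mHFD and 0.751 within mLFD. The difference between the isoforms was also set against Ucp1. Cox6a1 minus Cox6a2 correlated with Ucp1 at r = 0.695 (permutation p = 0.00239, adjusted over 3 pairs p = 0.00717), with a rho of 0.638. Without the 2 farthest arrays r was 0.584. Cox6a1 was the member gene with the highest r with Ucp1 on these same arrays. The adjustment over 3 pairs does not cover that choice, so this p is not separate support. For Cox8a minus Cox8b the r was 0.067 and for Cox7a2 minus Cox7a1 it was 0.011 (both adjusted permutation p = 0.968), with Cox8b at 0.359, Cox7a1 at 0.219 and Cox7a2 at 0.441 on their own.

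Most other subunits lay between the 5th and 95th percentiles of all probes. Atp5j2 and Cox7a2 lay just above that range and Atp5o below it. Of the 48 member genes the median r with Ucp1 was 0.18, against 0.0017 over all probes, whose 5th and 95th percentiles were -0.43 and 0.43. Besides Cox6a1 and Cox8a, the highest were Atp5j2 and Cox7a2, both at 0.441, and the lowest subunit gene was Atp5o, which encodes the stalk protein that confers oligomycin sensitivity, at -0.523. These r values share their arrays and are given as a description. Among 36 complex I genes the highest was 0.501, for Ndufb7.

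**Figure D5:**
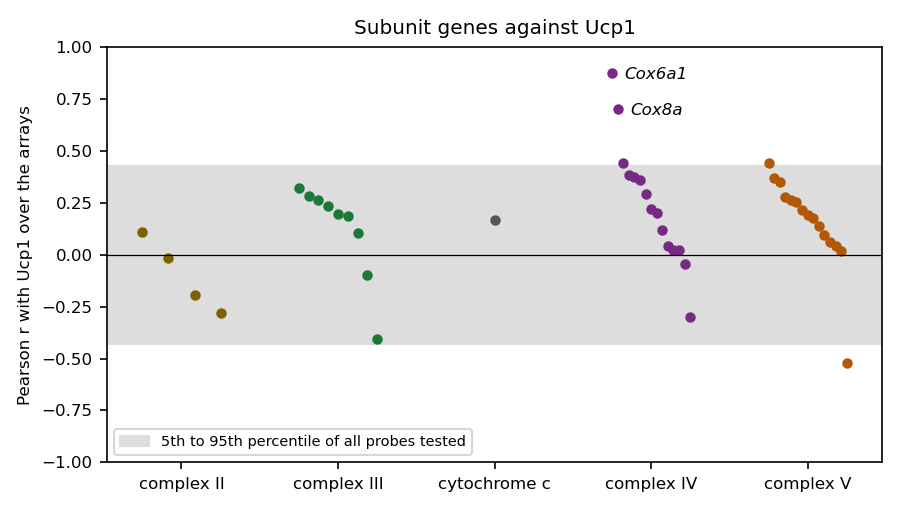
Pearson r with Ucp1 over the arrays (y axis) of each of the 44 subunit genes, by complex, with the 5th to 95th percentile of all probes tested in grey. Cox6a1 (0.876) and Cox8a (0.702) lie above the grey band by a wide margin.

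Cox6a1 was also set against the adipocyte markers one by one. Its r ran from 0.668 (Adipoq) to 0.833 (Fabp4) over 7 white and general markers, and was 0.875 with Cidea, 0.393 with Dio2 and 0.069 with Zic1. Among the other isoforms, Cox8a had an r of 0.758 with Pparg, Cox7a2 one of 0.601 with Retn, and the muscle form Cox8b 0.608 with Adipoq and 0.564 with Fabp4. Cox6a2 and Cox7a1 reached at most 0.388 and 0.301. These values are a description. Of 8 white and general adipocyte markers 7 were above background (not Lep), and their mean level ran from -0.67 to 0.26 in mHFD and from -0.76 to 0.68 in mLFD. Of 5 brown adipocyte markers 4 were above background (not Elovl3), with a mean level from -1.34 to 0.17 in mHFD and from -1.26 to 1.07 in mLFD. The part of adipocyte RNA in the level of Cox6a1 was not tested.

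Promoter sequences were searched for motifs of factors known to act on respiratory genes. RefSeq promoters of build GRCm38.p6, from 250 bases before to 50 after the start site, were found for 34 subunit genes (37 promoters). Searched on both strands, the NRF1 motif GCGCNTGCGC was in 27.0% of them, against 4.60% of all 32851 promoters, and the GABPA motif CCGGAAG in 32.4% against 8.86%. The YY1 motif AAGATGGC was in 8.11% against 2.75%, and the E-box CANNTG in 67.6% against 72.3%. A MEF2 pattern, CTANNNNTA with A or T at each N, was in 0% against 3.60%. The median count of CG pairs was 19 in these promoters and 7 in all. The windows of the 2 genes that followed Ucp1 most closely are shown, with the motif in capitals.
Cox6a1, NRF1 motif: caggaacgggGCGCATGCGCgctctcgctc
Cox6a1, GABPA motif: ccccatttccgCTTCCGGcgcgccggtgta
Cox8a, GABPA motif: tcagcgccggaaCTTCCGGctggttcggcc
They lie at chr5:115349101-115349130, chr5:115348956-115348985 and chr19:7217567-7217596 on the minus strand of GRCm38.p6, and the GABPA motif is in reverse orientation in both. The Cox6a1 promoter held 32 CG pairs, that of Cox8a 19 and that of Cox7a2 20, and those of the muscle forms Cox7a1 and Cox8b held 7 and 2. Neither the NRF1 nor the GABPA motif was found for Cox7a1, Cox8b or the general form Cox7a2, and the promoter of Cox6a2 was not analysed here. A match describes these letters and not a bound site.

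Genes around the chain were compared by counts. Complex I subunits had a median difference of -0.012, with 16 of 36 higher, and assembly factors of complexes II to V one of -0.015, with 12 of 28 higher. The 6 mitochondrially encoded subunits measured were all higher by value, with a median of 0.049, and citric acid cycle enzymes had 8 of 13 higher and a median of 0.035. Of these 4 lists 0 genes passed adjusted p 0.05 with limma, and 1 gene reached 0.05 unadjusted, where the share over all genes was 7.23%: Ndufab1, of complex I, which differed by -0.15 and is named here after its value was seen.

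Among 13 regulators of mitochondrial biogenesis, 3 (23.1%) reached unadjusted p 0.05, against 7.23% of all genes, and 0 passed limma's adjusted p of 0.05. They are named after their values were seen. Ppargc1a, a coactivator of respiratory genes, ran from -0.49 over 0.070 to 1.02 in mHFD and from -0.43 over -0.26 to 0.23 in mLFD, a difference of 0.34 (SE 0.13; limma p = 0.0140, adjusted p = 0.689). Esrra, a nuclear receptor it acts with, differed by 0.17 and Tfb1m by -0.23, both with limma adjusted p = 0.689. The median of the list was -0.017. Of 8 slow fibre markers 1, Myoz2, was higher, with a median of -0.20 and a mean level from -0.74 to 0.34 in mHFD and from -0.82 to 0.56 in mLFD, and 0 reached unadjusted p 0.05. Their part in the subunit values was not tested.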

How the data were processed

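Quadriceps RNA, 200 ng per sample, of 20 mice was hybridised to 2-colour Agilent arrays without dye swap. Per the file headers, Agilent Feature Extraction 10.7.3.1 read the spots, and probe coordinates are on mm9. The deposited intensity values are raw spot and local background brightness of Cy5 and Cy3. The deposited log10 ratio of Cy5 over Cy3 had been background-subtracted and dye-normalized by the authors' software. The authors also deposited log2 values for 19377 spots, every column with a median of 7.54; their scale, centring and direction are not given in the sources used here.

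Here, normexp (offset 50) and loess within arrays were applied, control and non-uniform spots had weight 0 and were left out, and spots of a probe were averaged. Probes well above background on at least 10 arrays were tested with limma 3.58.1 in R 4.3.3, with Benjamini-Hochberg adjustment over 19206 probes. A gene is its brightest probe. Isoform contrasts and correlations used 100000 two-sided permutations. The steps were tested on simulated data.

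Genes named in full were, by rule, all past the threshold, the 2 of smallest p in complexes II, III and cytochrome c, the 4 of smallest p in complexes IV and V, and all isoforms compared; others are named as examples. Members, lists and the rule were chosen with earlier results of these data known. Alternatives covered normalization, pool channel, the authors' table, filters, flags, slide, position, replicate number, probe choice, and single arrays and slides. The number of arrays limits the precision. Gene models of mm9 were not used here, so whether a probe lies in a UTR is not stated.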

Additional observations from a re-analysis of the deposited data

Results flagged for a closer look

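Among 44 sets of values, each of 1 named gene in 1 group, 1 had an array whose gap to its nearest neighbour was above Dixon's critical value, where chance gives about 1 in 20, or 2.2. It was Cox7a1, the muscle isoform, in mHFD: replicate 5 lay highest, at 0.74, and the gap took up 0.640 of the range of 8 arrays. The same array had the highest Cox6a2 value of its group, 0.46, and the highest median over all subunits. Without it the contrast of Cox7a1 over Cox7a2 was -0.014, against 0.045 with it.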

How the results depend on the processing

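No member probe passed adjusted p 0.05 under any of the alternatives run for this count or with any array left out, and all medians by complex moved by less than 1 SD between arrays, a wide yardstick beside medians this small. Over the alternatives other than single arrays, they ranged from -0.084 to 0.0069 for complex II, from -0.074 to 0.0047 for complex III, from -0.046 to 0.044 for complex IV, from -0.11 to -0.0042 for complex V and from -0.067 to 0.00080 for all subunits, so only complex V kept its sign. With single arrays left out, complex III ranged from -0.045 to 0.0048 and complex IV from -0.019 to 0.040. Complex II lay below complex V with the Agilent log ratio (-0.034) and without slide 1 (-0.068, against -0.033), and without mLFD replicate 1, mLFD replicate 2 or mHFD replicate 6. Differences this close to 0 change sign easily: 19 of 169 refits of an isoform contrast and 80 of 813 of a named gene did so, with no p below 0.207 (permutation, unadjusted) and 0.393 (limma, adjusted), and the cause was not tested. Atp5a1, Atp5k, Cox6a1, Cox7c, Sdhb and Uqcrc2, 6 of the 22 named genes, kept their sign in every refit. The refits used a gene's brightest probe or the mean of its probes. Other single probes of Sdhb (0.058) and Cox7c (-0.039) had the opposite sign.

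Isoform contrasts and named genes took these values of opposite sign. With the Agilent log ratio, the contrasts were -0.025 for Cox7a1 over Cox7a2, -0.17 for Cox4i2 over Cox4i1 and 0.029 for Cox6b2 over Cox6b1, and the differences 0.077 for Cox4i1, -0.0087 for Cox6a2, -0.061 for Cox6b1, -0.032 for Cox6b2, -0.022 for Cox7a1 and -0.0068 for Cox7a2. With Cy5 alone, the contrasts were -0.069 for Cox7a1 over Cox7a2, 0.11 for Cox8b over Cox8a and -0.063 for Cox4i2 over Cox4i1, and the differences -0.058 for Atp5g3, 0.026 for Cox4i1, -0.086 for Cox6b1, -0.16 for Cox6b2, -0.19 for Cox6c, -0.040 for Cox7a1, -0.056 for Cox7b, 0.070 for Cox8b, -0.026 for Sdhd and -0.047 for Uqcrq. With position as a covariate, the contrasts were -0.036 for Cox7a1 over Cox7a2 and 0.042 for Cox6b2 over Cox6b1, and the differences -0.013 for Atp5g3, -0.040 for Cox6a2, -0.029 for Cox6b1, -0.041 for Cox7a1, -0.0033 for Cox7a2, -0.062 for Cox7b and -0.061 for Uqcrq. With median centring, the contrast of Cox6b2 over Cox6b1 was 0.028, and the differences -0.0032 for Cox6b1, -0.020 for Cox7a2 and -0.030 for Cycs. In the authors' table that contrast was 0.070, and the differences -0.027 for Cox6a2, -0.023 for Cox6b1, -0.033 for Cox7a2, -0.029 for Cox7b, -0.040 for Cycs and -0.0070 for Uqcrq. With the mean of a gene's probes, Atp5c1 was 0.0032 and Cycs -0.0077.

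Without slide 1, Cox4i2 was 0.0026 and Cox8a 0.046. Without slide 2, Cox6b2 was -0.013 and Cycs -0.16. Without slide 3, the contrasts were -0.031 for Cox7a1 over Cox7a2 and 0.033 for Cox6b2 over Cox6b1, and the differences -0.090 for Cox6a2, -0.0067 for Cox6b1, -0.015 for Cox7a1 and -0.030 for Cox7b. Without slide 4, the contrast of Cox4i2 over Cox4i1 was -0.081, and the differences 0.064 for Cox4i1, -0.012 for Cox6c, -0.019 for Cox7a2, -0.0040 for Cox7b and 0.040 for Cox8a. Without slide 5, Cox6b2 was -0.025. With each array left out in turn, the contrasts ranged from -0.014 to 0.092 for Cox7a1 over Cox7a2, from -0.027 to 0.16 for Cox4i2 over Cox4i1 and from -0.039 to 0.020 for Cox6b2 over Cox6b1, and the differences from -0.17 to 0.015 for Cox4i1, -0.021 to 0.078 for Cox6a2, -0.011 to 0.040 for Cox6b1, -0.019 to 0.032 for Cox6b2, -0.0099 to 0.044 for Cox7a2, -0.020 to 0.055 for Cox7b, -0.030 to 0.055 for Cox8a and -0.061 to 0.075 for Cycs.

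The correlations with Ucp1, and their alternatives, were chosen after seeing the data. For Cox6a1 r ranged from 0.670 (median centring) to 0.967 (replicate block), and from 0.823 to 0.915 with single arrays left out. For Cox8a it ranged from 0.470 (median centring) to 0.774 with the replicate block, where permutation p was 0.0753. Ucp1 was not well above background on all 20 arrays, so that filter gave no value. The sample labels do not say whether replicate numbers pair the mice. Deviations of same-numbered mice correlated above 0.1 in 8 of 10 pairs, with a median of 0.18 and the lowest at -0.0073. Their arrays share a slide, and the source of this likeness was not tested. With the replicate block 0 member probes were called.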
